A study of Mus musculus with 12 samples.

Results

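Thumpd1, Plekhg1, Abcb10, Vill, Sik1, Uchl1, Padi4, Spint1 and Prim2 are 9 genes whose signal in cultured mouse macrophages was far lower in the Balb/c strain than in C57BL6. They were chosen by that measured strain difference from 27666 named genes on the array. All 18 probes that carry their names, or whose transcript accession now belongs to them, were followed on every array. The strain difference chose the genes, so it is described below without a test. The change with interleukin-4 (IL-4) inside each strain was not the measure that chose them, and was tested. It uses the same arrays, so a choice by low Balb/c mock levels can favour a rise in Balb/c.

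The cells were macrophages grown from bone marrow with recombinant human CSF1, a growth factor that drives marrow cells to become macrophages, at 200 ng/ml. Donors were C57BL6/J or Balb/cAnNCrl mice of 8 to 12 weeks, and each sample pooled marrow of 2 males and 1 female. Cells received IL-4 at 10 ng/ml for 4 h or for 18 h, or were mock-treated for 18 h, so the 4 h groups had no mock of their own duration. Each of the 6 groups had 2 arrays, which gave 12 in all. IL-4 is a cytokine of helper T cells that acts through the transcription factor STAT6 and moves macrophages to the alternatively activated state.

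The 9 genes belong to no common pathway. Thumpd1 encodes an adaptor for the acetylation of cytidine in transfer RNA. Plekhg1 encodes a guanine nucleotide exchange factor for small GTPases, and Sik1 a salt-inducible kinase that restrains CREB-dependent transcription by phosphorylating the CRTC coactivators. Abcb10 is a transporter of the mitochondrial inner membrane linked to heme synthesis, and Vill is a villin-like member of the actin-binding gelsolin family. Uchl1 is a ubiquitin C-terminal hydrolase best known from neurons, and Padi4 a peptidylarginine deiminase that citrullinates histones in neutrophils. Spint1 encodes a membrane-anchored Kunitz inhibitor of the serine proteases matriptase and HGF activator, and Prim2 the large subunit of DNA primase.

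A level here is the log2 of the scanner's processed signal minus the 75th percentile of the same array, so 0 is the level of a fairly bright probe. On the 12 arrays, 54.9% to 69.7% of spots were well above background by the scanner software, and the 75th percentile ran from 1196 to 1690 scanner units with at most 2 saturated spots. The lowest level called well above background on an array lay between -6.28 and -5.06 on the Balb/c arrays and between -7.04 and -5.73 on the C57BL6 arrays. A level below that limit is only a bound. The arrays sat on 3 slides, slide 1 with Balb/c alone, slide 3 with C57BL6 alone and slide 2 with both strains, so strain and slide largely overlap. Each replicate pooled several animals, so a p-value reflects how far these pools differ and not mice, and the number of arrays limits precision.

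The description of these genes as nearly silent in Balb/c held for only part of them. Of the 18 probes, 3 were well above background on all 6 C57BL6 arrays and on no Balb/c array. They were the probe of Sik1, probe A_52_P571431 of Abcb10 and probe A_52_P514061 of Padi4. Another 8 were well above background on 1 to 5 Balb/c arrays, and 4 were so on all 6, which were probes of Uchl1, Spint1 and Prim2 and probe A_52_P446215 of Thumpd1. Uchl1, Spint1 and Prim2 were therefore measured in Balb/c and are better described as lower than as silent.

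The filter kept 17 of the 18 probes, which asked that some group have 2 arrays well above background. In 15 of these 17, every C57BL6 array read above every Balb/c array, as 4.58% of all 27373 kept probes did, while the reverse held for 4.52%. Well above background on all C57BL6 arrays and on no Balb/c array described 0.413% of kept probes, and the mirror image 0.0731%. Nothing is read from these shares about the 9 genes, since the strain difference chose them. The median Balb/c minus C57BL6 difference was -4.57 over their 17 kept probes and -0.04 over all kept probes. In whole cultures, fewer cells of a type and less RNA per cell cannot be told apart.

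**Figure D1:**
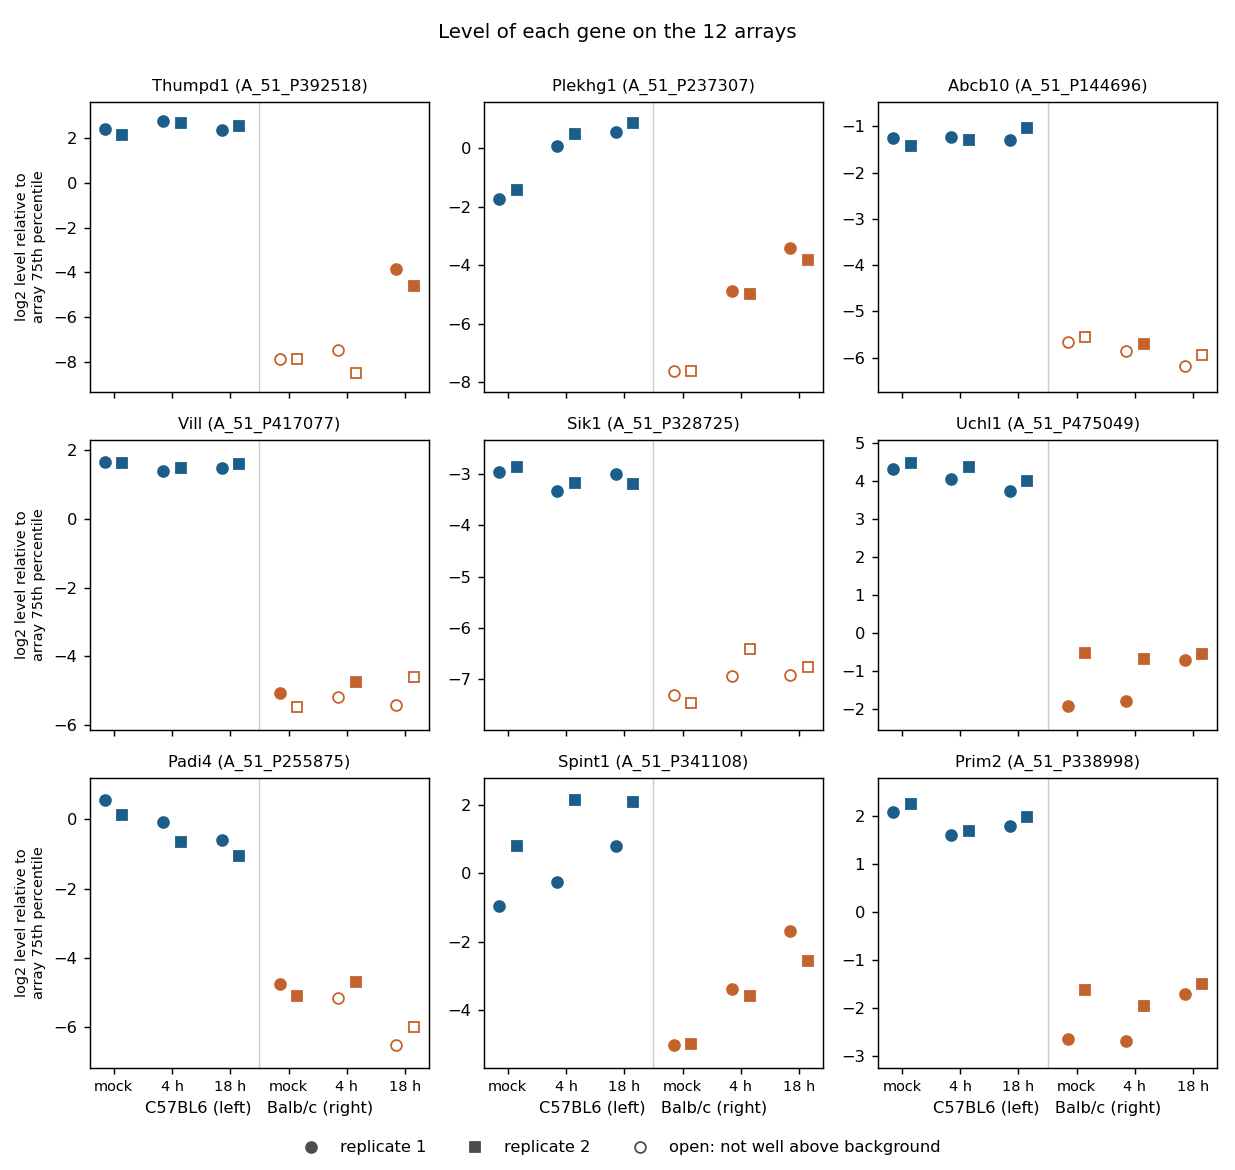
Log2 level of the leading probe of each gene on the 12 arrays, in C57BL6 (blue) and Balb/c (orange) by treatment; circles are replicate 1, squares replicate 2, and open symbols were not well above background. Every C57BL6 array lies above every Balb/c array in all 9 panels, while Uchl1, Spint1 and Prim2 have filled symbols on all 6 Balb/c arrays.

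Thumpd1 had the largest strain difference of the 9 genes, and its probes disagreed. At probe A_51_P392518 the C57BL6 levels were 2.40 and 2.14 in mock, 2.76 and 2.66 after 4 h and 2.34 and 2.53 after 18 h of IL-4. Its Balb/c levels were -7.86 and -7.89 in mock, -7.47 and -8.48 after 4 h, and -3.85 and -4.62 after 18 h. In raw terms the mock arrays read 7444 and 7452 scanner units in C57BL6 against 5.28 and 5.79 in Balb/c. The C57BL6 mean was at least 235.5-fold higher in mock and at least 350-fold higher after 4 h, both bounds because no Balb/c array of those groups was well above background. After 18 h both Balb/c arrays were well above background, and the difference of means was -6.67.

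Probe A_52_P446215, which the files also assign to Thumpd1 through a predicted transcript, gave another picture. It lies 2887 bases away on chromosome 7 by the coordinates of the files, whose genome build is not given in the sources used here. Its levels ran from -3.62 to -2.44 in C57BL6 and from -3.35 to -2.56 in Balb/c, well above background on all 12 arrays. The strains overlapped throughout, with differences of -0.01, 0.21 and 0.09 in mock, at 4 h and at 18 h. Whether sequence variants lie under either probe was not tested, because probe sequences were not used here.

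At probe A_51_P392518 Thumpd1 rose after 18 h of IL-4 in Balb/c, by a log2 change of 3.64 ± 0.35 (SE, n = 2 arrays a group), with a limma adjusted p of 0.00174. Because the mock arrays were below the background limit, the rise is bounded at 2.59-fold or more. It was called without any 1 of the 4 arrays (limma adjusted p 0.00628 to 0.0160), and measured 4.02 within slide 1. Fitted on those 4 arrays alone it was not called (limma adjusted p 0.0827), and over all alternatives the p ran from 3.3e-04 to 0.824. Probe A_52_P446215 changed by 0.11 ± 0.42 in the same comparison (limma adjusted p 0.936) and was not called. In C57BL6 the change of A_51_P392518 at 18 h was 0.17 ± 0.35, not called (limma adjusted p 0.867). The difference between the strains in that change was 3.48 ± 0.49, with a limma adjusted p of 0.243, and its size is not measured because the Balb/c mock level is only a bound. Over its alternatives that p ran from 0.0374 with quantile normalization to 0.999. The strain difference of an IL-4 change uses the same mock arrays as the strain difference itself.

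A list of 5 genes, which held Thumpd2, Thumpd3, the acetyltransferase Nat10 that Thumpd1 assists, and Thada, was well above background on all 12 arrays and overlapped between strains. The largest strain differences among them were -0.23 for Thumpd3 and 0.18 for Thada, both without a call for IL-4, as none of the 5 was called in any of the 4 IL-4 comparisons.

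Plekhg1 was lower in Balb/c and rose with IL-4 in both strains. At probe A_51_P237307 on chromosome 10, C57BL6 arrays read -1.73 and -1.44 in mock, 0.07 and 0.48 after 4 h, and 0.54 and 0.86 after 18 h. Balb/c arrays read -7.61 and -7.61 in mock, -4.88 and -4.99 after 4 h, and -3.42 and -3.83 after 18 h. The treated arrays lay above the mock arrays in each strain, and no Balb/c array reached the lowest C57BL6 level. Only the 2 Balb/c mock arrays were not well above background.

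The rise of Plekhg1 in C57BL6 was 1.86 ± 0.22 at 4 h (limma adjusted p 0.00510) and 2.28 ± 0.22 at 18 h (limma adjusted p 0.00185). In Balb/c it was 2.68 ± 0.22 at 4 h (limma adjusted p 0.00259) and 3.99 ± 0.22 at 18 h (limma adjusted p 2.1e-04), at least 1.60-fold and at least 3.96-fold given the mock limit. Without replicate 2 of the C57BL6 4 h group the first of these 4 calls was lost, at a change of 1.65 and a limma adjusted p of 0.0558. The other 3 were kept without any 1 array. Both 4 h calls were lost when only the arrays compared were fitted (limma adjusted p 0.0787 in C57BL6 and 0.318 in Balb/c), and over all alternatives the p reached 0.651 and 1.00. The 18 h calls were lost with the planned normexp background correction (limma adjusted p 0.219 and 0.866), where the Balb/c change became -0.23. Within slides the changes were 1.80 and 1.91 at 4 h and 2.13 at 18 h in C57BL6, and 2.73 and 4.19 in Balb/c. The strain difference of the rise was 0.82 ± 0.31 at 4 h (limma adjusted p 1) and 1.71 ± 0.31 at 18 h (limma adjusted p 0.421), not called at either time. The Balb/c mock level is only a bound, so these sizes are not measured. The Balb/c rises of at least 1.60-fold and 3.96-fold, beside 3.62-fold and 4.86-fold in C57BL6, do not set the sign of the difference.

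The other Plekhg1 probe, A_52_P285975, lies 3253 bases away and was near the background limit. It was well above background on no Balb/c array and on 3 C57BL6 arrays, and the strains overlapped, with differences of 0.58, -1.13 and -1.11 in mock, at 4 h and at 18 h. In C57BL6 it rose by 2.22 ± 0.47 at 18 h (limma adjusted p 0.0399), at least 1.48-fold. That call was lost without any 1 of the 4 mock and 18 h arrays of C57BL6 (limma adjusted p 0.0549 to 0.205). The family of PLEKHG exchange factors gave 5 tested genes, all overlapping between strains. Plekhg3 fell in C57BL6, with log2 changes of -1.04 at 4 h and -0.96 at 18 h (limma adjusted p 0.0293 and 0.0334). Plekhg5 and Plekhg6 had the largest strain differences of the uncalled members, 0.95 and -0.56.

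Sik1, named Snf1lk in the scanner files, has a lone probe on chromosome 17. Its C57BL6 levels were -2.96 and -2.85 in mock, -3.33 and -3.18 after 4 h and -2.99 and -3.20 after 18 h. Its Balb/c levels lay between -7.46 and -6.42, none well above background, and the gap between the strains was 3.09. The C57BL6 mean was at least 6.49-fold higher in mock, at least 5.61-fold at 4 h and at least 4.04-fold at 18 h. No IL-4 change of Sik1 was called, the largest in C57BL6 being -0.34 ± 0.20 at 4 h (limma adjusted p 0.462). With 1 probe, nothing on the array checks the strain difference of this gene.

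Among the genes around Sik1, a list of 14 held the related kinases, the upstream kinase, the CRTC coactivators and CREB targets. All 13 that were tested were well above background on every array. The kinase Sik3 was the 1 gene lower in Balb/c without overlap, at a difference of -0.40, as were 4.58% of all kept probes. The nuclear receptor Nr4a1, an immediate-early CREB target, fell by 1.91 on the log2 scale at 4 h in C57BL6 (limma adjusted p 0.0139). In Balb/c its value was -1.53 (limma adjusted p 0.0565), short of a call. The targets Il10 and Pde4b had strain differences of -0.89 and 0.77, overlapping between arrays, and neither was called for IL-4.

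Abcb10 was lower at both of its probes, which lie 29115 bases apart on chromosome 8. At A_51_P144696 the C57BL6 arrays read -1.25 and -1.42 in mock, -1.22 and -1.30 after 4 h and -1.30 and -1.03 after 18 h. The Balb/c arrays read -5.66 and -5.56, then -5.87 and -5.70, then -6.19 and -5.96, and 1 of the 6 was well above background. The groups did not overlap, and the gap between the strains was 4.15. The C57BL6 mean was at least 18.8-fold higher in mock and at least 15.4-fold higher at 18 h. At A_52_P571431 it was at least 4.51-fold in mock, 4.34-fold at 4 h and 3.09-fold at 18 h. No IL-4 change of Abcb10 was called at either probe. In C57BL6 the largest was -0.19 at 4 h at A_52_P571431 (limma adjusted p 0.888). The same probe gave 0.57 in Balb/c at 18 h (limma adjusted p 0.540). It was well above background on no Balb/c array, so that value compares signals below the limit and is not a measured change.

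The enzymes and carriers of heme synthesis mostly overlapped between strains. All 16 listed genes were well above background on every array, with a median strain difference of 0.07. Of these, 2 were lower in Balb/c without overlap, as were 4.58% of all kept probes, and nothing is read from so small a count. The 2 genes were Alas1, the rate-limiting enzyme of heme synthesis, at a difference of -0.95, and Ppox, a later enzyme, at -0.59. Alad, the enzyme after Alas1, differed by 0.72 with overlapping arrays. The mitochondrial iron importer Slc25a37 fell in C57BL6, with log2 changes of -1.26 at 4 h and -1.28 at 18 h (limma adjusted p 0.0121 and 0.00932). In Balb/c it fell by 1.05 at 18 h (limma adjusted p 0.0209) and was not called at 4 h. The heme-degrading enzyme Hmox1 fell at 4 h in both strains, with log2 changes of -1.02 in C57BL6 and -0.91 in Balb/c (limma adjusted p 0.00991 and 0.0285). Of 8 erythroid markers only 3 passed the filter, and Klf1 did not. Their summed log2 level ran from -5.18 to -3.73 in C57BL6 and from -4.68 to -3.52 in Balb/c, and none was lower in Balb/c without overlap, while the erythropoietin receptor Epor was higher there by 1.17.

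Vill was at a steady level in C57BL6 and near the background limit in Balb/c. At A_51_P417077 on chromosome 9 the C57BL6 arrays lay between 1.39 and 1.64 and the Balb/c arrays between -5.47 and -4.58, with 2 of 6 Balb/c arrays well above background. The mock arrays read 4387 and 5215 scanner units in C57BL6 and 36.6 and 31.0 in Balb/c. At 18 h, where neither Balb/c array was well above background, the C57BL6 mean was at least 84.5-fold higher. The other probe, A_52_P283869, begins 1179 bases away and showed C57BL6 levels of -0.25 to 0.17 against Balb/c levels of -5.90 to -3.69. Its Balb/c mock arrays disagreed, at -3.69 and -5.90, and the strain differences were -4.62, -5.28 and -5.10.

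No IL-4 change of Vill was called at either probe over all arrays, where none was larger than 0.47 in size. The changes of A_52_P283869 in Balb/c rested on its unequal mock arrays. Without mock replicate 2 they became -1.58 at 4 h and -1.29 at 18 h, both called (limma adjusted p 0.0363 and 0.0304), and without mock replicate 1 they became 0.63 and 0.92, not called. The gelsolin and villin family gave 5 tested genes of 7, all well above background on every array and all overlapping between strains. Scin had the largest strain difference, -1.28, and Capg, which caps actin filaments in macrophages, differed by -0.21. None of the 5 was called for IL-4. Of the 8 stromal and epithelial markers 4 passed the filter, without Epcam or Krt18. Their summed log2 level was -1.75 to -0.93 in C57BL6 and -1.53 to -0.97 in Balb/c.

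Uchl1 was lower in Balb/c at both probes but was measured there, on every array at 1 of them. At A_51_P475049 on chromosome 5 the C57BL6 arrays read 4.30 and 4.46 in mock, 4.06 and 4.36 after 4 h, and 3.74 and 4.00 after 18 h. The Balb/c arrays read -1.92 and -0.51 in mock, -1.78 and -0.68 after 4 h, and -0.69 and -0.54 after 18 h, all well above background. Replicate 1 lay more than 1 below replicate 2 in Balb/c mock and at 4 h, and the same order held at A_52_P24308, 4522 bases away. The difference of means was -5.59, -5.44 and -4.49 at the first probe, and -5.60, -5.89 and -4.81 at the other. At A_52_P24308, 4 of 6 Balb/c arrays were well above background, and replicate 1 of mock and of 4 h was not. The mock and 4 h differences of that probe are therefore not measured in size. At 18 h, where both Balb/c arrays were well above background, the probes differed by less than 0.5.

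IL-4 calls were absent at both Uchl1 probes, with changes between -0.51 and 0.69. Of the ubiquitin C-terminal hydrolases and ubiquitin genes, all 8 were well above background on every array, with a median strain difference of 0.08. Uchl5, a proteasome-bound hydrolase, differed by -0.24, with overlapping arrays. None of the 8 was called for IL-4.

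Padi4 read lower in Balb/c at all 3 probes on chromosome 4 and fell with IL-4 in C57BL6. At A_51_P255875 the C57BL6 arrays read 0.55 and 0.11 in mock, -0.07 and -0.66 after 4 h, and -0.61 and -1.07 after 18 h. The Balb/c arrays read -4.75 and -5.09 in mock, -5.15 and -4.70 after 4 h, and -6.50 and -5.99 after 18 h, well above background on 3 of 6. Probe A_52_P514061, whose start lies 118 bases away, gave C57BL6 levels of 0.65 and 0.28, -0.02 and -0.65, and -0.56 and -1.04 in the same order. Its Balb/c levels were -5.41 and -5.57, -6.35 and -6.18, and -7.16 and -7.10, none well above background. The C57BL6 mean was at least 62.1-fold higher in mock, 41.1-fold at 4 h and 19.8-fold at 18 h. The distant probe A_52_P278047, 14110 bases away, had C57BL6 means at least 1.90-fold higher in mock and 1.13-fold higher at 4 h. At 18 h its C57BL6 mean of -5.75 lay below the Balb/c limit, so no bound could be set.

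Padi4 fell after 18 h of IL-4 in C57BL6 at A_52_P514061, by 1.27 ± 0.26 on the log2 scale (limma adjusted p 0.0343). In Balb/c the same probe gave -1.64 ± 0.26 (limma adjusted p 0.0122), but it was well above background on none of the 6 Balb/c arrays and passed the filter through C57BL6. That value compares signals below the limit, so it is not taken as a measured fall. Both passed the threshold only with all arrays, and did not without any 1 of the 4 arrays compared, with limma adjusted p of 0.0874 to 0.229 in C57BL6 and 0.0515 to 0.0826 in Balb/c. At A_51_P255875 the changes were -1.17 ± 0.31 and -1.33 ± 0.31, short of a call (limma adjusted p 0.0871 and 0.0642). With the replicate number as a block they were called (limma adjusted p 0.0204 and 0.0157). For Balb/c that fall is bounded at 1.14-fold or more, since neither 18 h array was well above background. The 4 h change at A_52_P514061 in C57BL6, -0.80, was also called with the block (limma adjusted p 0.0129). The Balb/c value of -0.78 (limma adjusted p 0.0245 with the block) again lies between groups below the limit.

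Markers of neutrophils, the cells in which PADI4 is best known, were lower in Balb/c in part. Of 11 neutrophil markers 9 passed the filter, and 6 of these were lower in Balb/c without overlap, as were 4.58% of all kept probes, with a median difference of -1.68. Their summed log2 level was 3.36 to 4.11 on the C57BL6 arrays and 1.83 to 3.42 on the Balb/c arrays. Camp, an antimicrobial peptide of granules, differed by -2.75 and Ngp by -2.15, while Elane and Retnlg did not pass the filter. Mmp8, Prtn3 and Cd177 overlapped between strains, at differences of 0.06, -0.68 and -0.35. Camp gave the only neutrophil call in the 4 IL-4 comparisons, a log2 change of -1.56 at 18 h in Balb/c (limma adjusted p 0.0360). It was well above background on only 2 of the 6 Balb/c arrays, with a mean level of -6.14 there. The size of neither that change nor its strain difference is therefore measured. The part of neutrophils in the Padi4 result was not tested. The 8 macrophage markers overlapped between strains, at a summed log2 level of 9.07 to 9.51 in C57BL6 and 9.12 to 9.63 in Balb/c, while 2 of them, Fcgr1 and Cd14, fell with IL-4 at 18 h in both strains, with log2 changes of -1.96 and -3.10 in C57BL6 and -1.90 and -2.42 in Balb/c.

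The 4 other peptidylarginine deiminases had a median strain difference of -0.97, but only 2 of them were well above background on all 12 arrays. Padi3 was so on 2 of 6 Balb/c arrays and Padi6 on none, so that median is not a measured value. Padi1, well above background on every array, differed by -0.29 with overlapping arrays. Padi2 was lower without overlap, at a difference of -1.62, and Padi3 differed by -1.16 with overlapping arrays. None of the 4 was called for IL-4.

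Spint1 was lower in Balb/c, was measured in both strains, and had higher means after IL-4 in both. At A_51_P341108 on chromosome 2 the C57BL6 arrays read -0.96 and 0.79 in mock, -0.26 and 2.13 after 4 h, and 0.78 and 2.07 after 18 h. The Balb/c arrays read -5.02 and -5.00 in mock, -3.40 and -3.59 after 4 h, and -1.71 and -2.56 after 18 h. In C57BL6 replicate 2 lay more than 1 above replicate 1 in every group, so mock and treated arrays overlapped, and in Balb/c they did not. The lowest C57BL6 array was 0.75 above the highest Balb/c array. The strain differences were -4.93, -4.43 and -3.55 in mock, at 4 h and at 18 h, and -4.20, -3.94 and -3.39 at A_52_P509886, which begins 792 bases away.

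The IL-4 changes of Spint1 at A_51_P341108 were 1.51 ± 0.84 in C57BL6 and 2.88 ± 0.84 in Balb/c at 18 h, and neither was called (limma adjusted p 0.416 and 0.131). With the replicate number as a block, both were called (limma adjusted p 0.0269 and 0.00438), as were those of A_52_P509886 (limma adjusted p 0.0216 and 0.00730). At 4 h the block gave a call for A_51_P341108 in Balb/c (limma adjusted p 0.0454), where the change was 1.52 ± 0.84. Within slides the 18 h change at A_51_P341108 was 0.64 in C57BL6 and 3.31 in Balb/c.

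The Kunitz inhibitors, matriptase and the HGF system gave 7 tested genes of 11. Mst1, a macrophage-stimulating protein of that family, was the gene lower in Balb/c without overlap, at a difference of -0.65. The related inhibitor Spint2 differed by 2.54 in the other direction, with overlapping arrays and well above background on 3 C57BL6 and 5 Balb/c arrays. Hgfac, the HGF activator that Spint1 inhibits, differed by -0.65. None of the 7 was called for IL-4.

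Prim2 was lower in Balb/c at the probe that could be measured. At A_51_P338998 on chromosome 1 the C57BL6 arrays read 2.08 and 2.26 in mock, 1.60 and 1.69 after 4 h, and 1.80 and 1.98 after 18 h. The Balb/c arrays read -2.66 and -1.63 in mock, -2.70 and -1.96 after 4 h, and -1.72 and -1.51 after 18 h, all well above background. The strain differences were -4.31, -3.98 and -3.50. No IL-4 change was called, the largest being 0.53 in Balb/c at 18 h (limma adjusted p 0.557). The other probe, A_52_P1115939, lies 160075 bases away, did not pass the filter and overlapped between strains.

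The replication genes that act with Prim2 overlapped between strains. All 16 genes of the list of primase, polymerase alpha and replication licensing were well above background on every array, with a median strain difference of -0.44. Mcm6 and Pcna had the largest, -1.16 and -0.89. None was called for IL-4, and the median change at 18 h was -0.29 in C57BL6 and 0.77 in Balb/c.

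**Figure D2:**
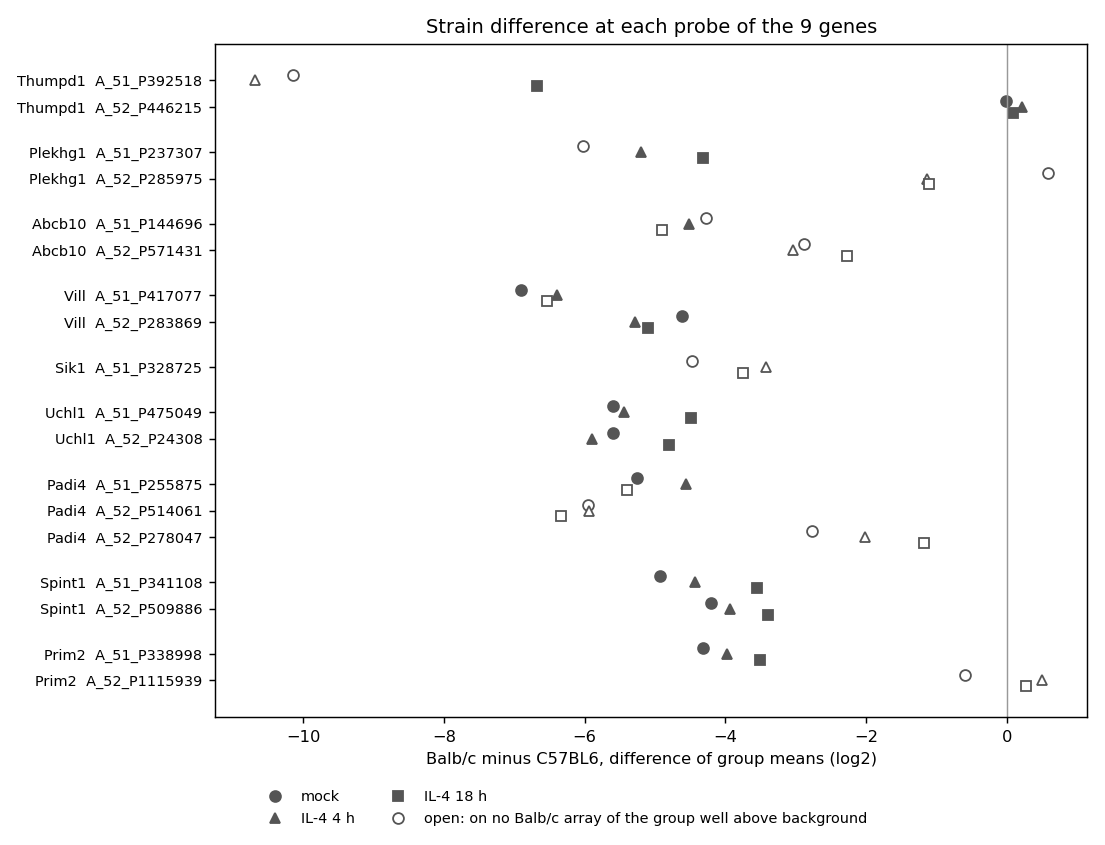
Balb/c minus C57BL6 difference of group means on the log2 scale at each of the 18 probes, by treatment; open symbols mark groups with no Balb/c array well above background. The probes of Vill, Uchl1, Padi4, Spint1 and Abcb10 all lie below 0, whereas the other probes of Thumpd1, Plekhg1 and Prim2 lie between -1.13 and 0.58.

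Across the 8 genes with more than 1 probe, 5 read lower in Balb/c without overlap at every probe, namely Abcb10, Vill, Uchl1, Padi4 and Spint1. At A_52_P278047 of Padi4 no Balb/c array and not every C57BL6 array was well above background, so the lack of overlap there is not measured. Thumpd1, Plekhg1 and Prim2 each had a probe at which the strains overlapped, dim in both strains for Plekhg1 and Prim2 and measured on every array for Thumpd1. On slide 2, which held a Balb/c and a C57BL6 array of the 4 h treatment, the strain difference of the leading probe was -6.15 for Vill, -5.06 for Plekhg1 and -4.74 for Uchl1. It was -4.64 for Padi4, -4.48 for Abcb10, -3.56 for Prim2 and -3.33 for Spint1. Thumpd1 and Sik1 were not well above background on that Balb/c array, whose limit was -6.28, and read 2.76 and -3.33 on the C57BL6 array. At its leading probe each gene read lower in Balb/c on this slide, from a single array of each strain. Probe A_52_P446215 of Thumpd1 differed by 0.78 there, in the other direction. For mock and for 18 h, the strains shared no slide.

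**Figure D3:**
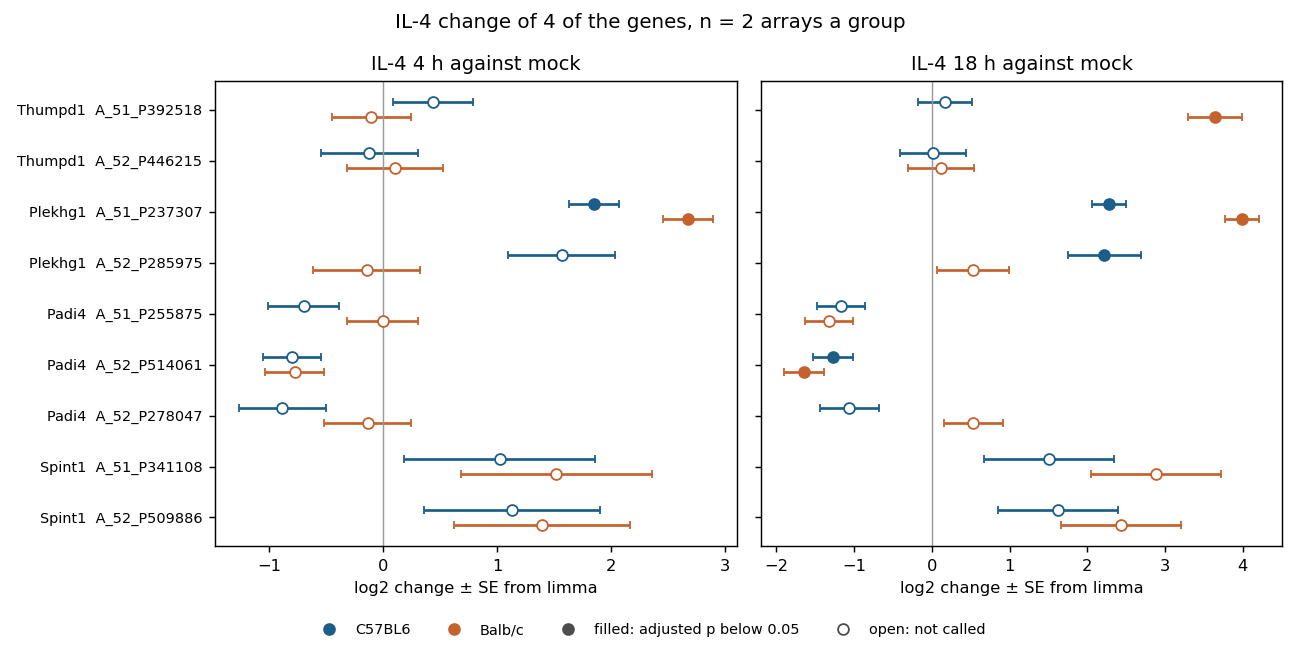
Log2 change after 4 h and 18 h of IL-4 against mock for the probes of 4 of the genes, with standard errors from limma, in C57BL6 (blue) and Balb/c (orange); filled symbols passed the adjusted threshold. Plekhg1 at A_51_P237307 is filled in all 4 comparisons, and Thumpd1 at A_51_P392518 in Balb/c at 18 h alone.

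Over the 17 kept probes, IL-4 gave 1 call at 4 h and 3 at 18 h in C57BL6, and 1 at 4 h and 3 at 18 h in Balb/c. Over all kept probes the share called was 3.22% and 4.13% in C57BL6 and 1.23% and 3.58% in Balb/c. The 3 calls were 2 probes of Plekhg1 and 1 of Padi4 in C57BL6, and 1 probe each of Plekhg1, Padi4 and Thumpd1 in Balb/c, so these small counts rest on 3 genes. The Padi4 call in Balb/c, between groups below the limit, is included in the count but not as a measured change. The probe of Sik1, A_52_P571431 of Abcb10, A_52_P285975 of Plekhg1 and A_52_P514061 and A_52_P278047 of Padi4 were well above background on no Balb/c array. They passed the filter through C57BL6 and are counted, though no Balb/c change could be measured at them. With the replicate number as a block, the calls were 2 and 6 in C57BL6 and 3 and 6 in Balb/c, against 16.3%, 17.2%, 7.03% and 14.4% of all kept probes. The strain difference of the IL-4 change was called by limma for 0 of 17 probes at either time, with 3 and 6 at an unadjusted p below 0.05. Over all kept probes it was called for 0, with 700 and 1461 at an unadjusted p below 0.05. At each of those 3 and 6 member probes no Balb/c mock array was well above background, so the size of the difference is not measured. The same mock arrays enter the strain difference that chose the genes, so nothing is read from these counts.

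Probes of Plekhg1, Padi4 and Thumpd1 passed the threshold after IL-4, for Padi4 in C57BL6 and for Thumpd1 in Balb/c. Those of Spint1 passed it only with the replicate block. Of these genes, the promoters of Plekhg1, Spint1 and Padi4 are shown. Each is the 250 bases before the annotated start from RefSeq on GRCm38.p6, printed 5′ to 3′ on the strand of the gene with CpG dinucleotides in capitals. They lie at chr10:3872417-3872666 (plus strand), chr2:119237110-119237359 (plus strand) and chr4:140774204-140774453 (minus strand).
Plekhg1: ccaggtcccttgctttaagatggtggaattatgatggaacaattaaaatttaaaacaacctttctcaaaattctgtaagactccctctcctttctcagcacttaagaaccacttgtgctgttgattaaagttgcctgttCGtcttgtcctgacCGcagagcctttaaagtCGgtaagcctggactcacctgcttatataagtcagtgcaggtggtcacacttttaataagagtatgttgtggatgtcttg
Spint1: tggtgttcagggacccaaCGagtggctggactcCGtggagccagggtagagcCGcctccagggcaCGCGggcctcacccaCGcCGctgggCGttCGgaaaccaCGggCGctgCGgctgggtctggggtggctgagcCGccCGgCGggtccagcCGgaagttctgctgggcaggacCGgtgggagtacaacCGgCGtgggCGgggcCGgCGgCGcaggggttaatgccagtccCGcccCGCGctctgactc
Padi4: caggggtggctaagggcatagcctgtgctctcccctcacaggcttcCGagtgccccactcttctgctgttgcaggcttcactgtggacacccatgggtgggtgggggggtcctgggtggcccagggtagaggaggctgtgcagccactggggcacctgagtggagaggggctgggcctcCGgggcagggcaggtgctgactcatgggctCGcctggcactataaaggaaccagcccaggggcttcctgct
The Spint1 window holds 26 CpG dinucleotides, a number that 9.59% of the 32851 promoters in the table reach, and the windows of Plekhg1 and Padi4 hold 3 each. The STAT6 palindrome, TTC and GAA separated by 4 bases, which reads the same on both strands, is in none of the 7 member promoters found in the table, those of Thumpd1, Abcb10, Vill and Uchl1 included, and in 5.85% of all promoters. The short CREB site, TGACG or CGTCA for the 2 strands, is also in none of the 7 and in 17.8% of all. TATAAA, searched on both strands, is in the Padi4 window alone and in 12.4% of all. Sik1 and Prim2 were not matched.

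The genes beside the 9 on their chromosomes were followed as well. The nearest gene with a kept probe was taken on each side, in the gene order of RefSeq on GRCm38.p6, which gave 18 neighbours. Of these, 17 overlapped between strains, 16 differed by less than 1 and the median difference was -0.20. The 1 of 18 without overlap is near the shares over all kept probes, 4.58% lower and 4.52% higher in Balb/c, so nothing is read from that count. The exception was Ppp1r14c, an inhibitor subunit of protein phosphatase 1, at the lower-coordinate side of Plekhg1 on chromosome 10. It ran from -1.14 to -0.48 in C57BL6 and from -7.06 to -5.31 in Balb/c, well above background on 1 of 6 Balb/c arrays, a difference of -5.67. Mthfd1l on the other side of Plekhg1 overlapped between strains. Padi6 and Padi3, which flank Padi4, differed by -0.78 and -1.16, both overlapping and both dim. The neighbours of Thumpd1, Gpr139 and Eri2, differed by -0.29 and -0.28, those of Abcb10, Nup133 and Taf5l, by 0.06 and 0.11, and those of Spint1, Zfyve19 and Rhov, by -0.18 and -0.29.

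**Figure D4:**
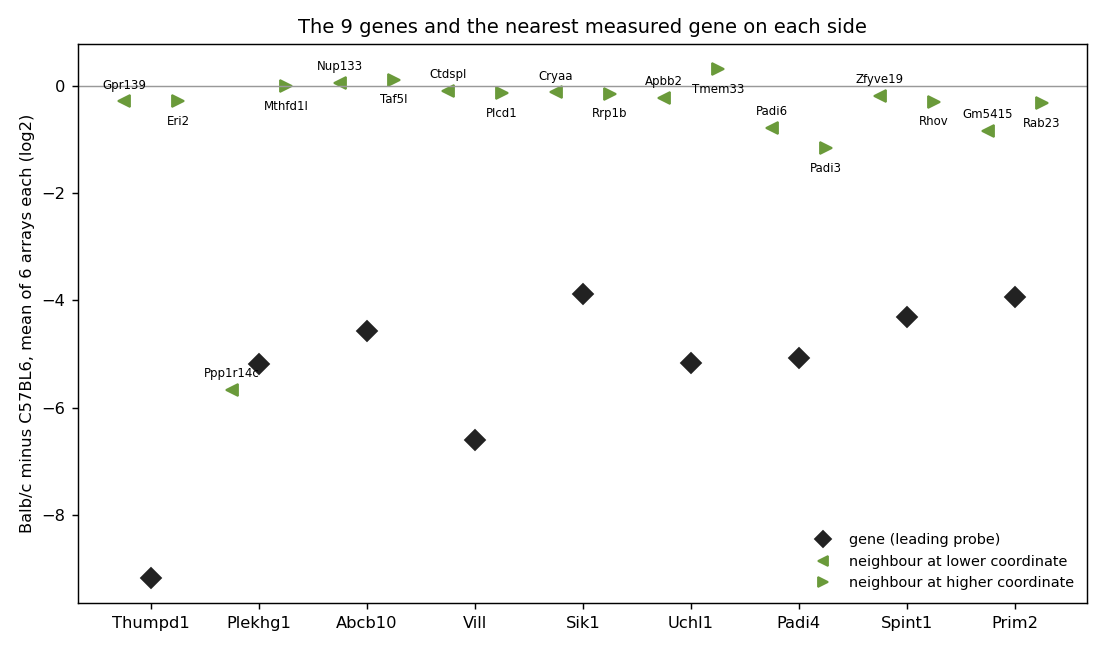
Balb/c minus C57BL6 difference over 6 arrays a strain on the log2 scale for the leading probe of each gene (diamonds) and for the nearest gene with a kept probe on each side (triangles). The neighbours lie between -1.16 and 0.31 except Ppp1r14c at -5.67 beside Plekhg1.

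The genes with the most similar pattern over the 12 arrays were found by the mean absolute difference of mean-centred log2 levels to the leading probe. For Thumpd1 the nearest were Trim12a, at a distance of 0.93, then Tspan32 and Rab6b. Trim12a, also on chromosome 7, was well above background on all 6 C57BL6 arrays and on no Balb/c array, with a strain difference of -10.65. For Plekhg1 they were Trib2 at 1.02, Chil3 and Zfp874a, and for Spint1 they included Trib2 at 0.70 and Elovl7. Chil3, a chitinase-like protein known as an IL-4-induced gene of mouse macrophages, was well above background on all 12 arrays and differed by -4.04. For Prim2 they included Arl2bp at 0.27 and Gcnt1, for Sik1 Arl2bp at 0.23, Cldn34c1 and Gcnt1, and for Abcb10 Camk2b at 0.33, Tmtc2 and Gcnt1. For Padi4 they were Slc13a3 at 0.28, Ppp1r14c and C5ar2, for Vill Prdm16 at 0.42, Ppp1r14c and Rab6b, and for Uchl1 Tmtc2 at 0.49, Ppp1r14c and C5ar2. These genes were selected for the likeness, so their strain differences follow from it.

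Over the 9 family and pathway lists together, 86 genes were listed and 79 tested. Of these, 74 were well above background on every array, 6 were lower in Balb/c without overlap and 0 higher, against 4.58% and 4.52% of all kept probes. None rose with IL-4 in any of the 4 comparisons. In C57BL6, 4 fell at 4 h and 2 at 18 h, and in Balb/c 1 fell at each time, all of them named above. Markers of the remaining cell types were dim, with summed log2 levels of -2.17 to -1.57 in C57BL6 and -1.96 to -1.51 in Balb/c for B and T cells. For mast cells and basophils, 2 of 5 markers passed the filter, of which Prss34 was lower in Balb/c without overlap, at a difference of -0.82, at summed levels of -2.97 to -2.29 in C57BL6 and -3.65 to -2.98 in Balb/c.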

How the data were processed

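Green processed signals of 12 one-colour arrays, an intensity on a linear scale per the file headers, came from the deposited scanner files. The submitters' processing notes name Agilent Feature Extraction 9.5.1.1. The deposited values table held a linear ratio for each probe, with denominator and centring not given in the sources used here. Its column medians ran from 0.936 to 1.132, and 96.0% to 98.6% of kept probes lay within 0.1 log2 of a ratio rebuilt against the mean of the 2 C57BL6 mock arrays, after centring. It served as an alternative, with 188 missing values.

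Control spots and spots with outlier flags were left out, spots of a probe were averaged on the log2 scale, and each array's 75th percentile was subtracted. Of 41174 probes, 27373 were kept because both arrays of at least 1 group were well above background. A least-squares model of the 6 group means was fitted over all kept probes with limma 3.58.1 in R 4.3.3 (6 residual and 2.15 prior degrees of freedom), and a call is a Benjamini-Hochberg adjusted p below 0.05. The script was tested on simulated data. A bound is written as at least that many fold, from the bright group's mean to the dim group's limit: on each array the higher of the lowest level called well above background and the probe's own level.

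Symbols follow the transcript accession through RefSeq on GRCm38.p6. Of the kept probes, 17722 were named by accession, 3922 by a current symbol, 1847 by an older symbol and 3882 kept the scanner file's name. A listed gene was represented by its brightest kept probe, called its leading probe.

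The members and the 15 gene lists (9 of families or pathways, 6 of cell type markers) were chosen with earlier results of these data known. Named genes were all members, up to 4 called genes a list and comparison, up to 2 uncalled genes a list by strain difference, the nearest gene on each side and the 3 most similar patterns a member. Fcgr1, Cd14, Camp, Ngp, Mmp8, Prtn3, Cd177, Ppox, Sik3, Epor, Mst1 and Prss34 were named after their values were seen. A few genes that this rule or the lists select are not reported here.

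Replicate numbers were checked as pairs: deviations from the group means of same-numbered samples of a strain correlated at 0.20 to 0.64 in all 6 pairs of groups, and the series text speaks of independent experiments with different littermates. The main model has no such block, and the fit with it is given where it changes a call. The highest correlations, 0.64 in Balb/c and 0.61 in C57BL6, came from groups whose replicates were split over the same slides. Pairing and slide cannot be told apart there. Alternatives were median and quantile scaling, normexp background, other filters, 1 probe a gene, only the arrays compared, replicate and slide blocks, array weights, the deposited ratios and leaving out each array.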

Additional observations from a re-analysis of the deposited data

How the results depend on the processing

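Over all kept probes, the counts of calls after IL-4 at 4 h and 18 h were 882 and 1130 in C57BL6 and 338 and 981 in Balb/c, and depended on the processing. The replicate block gave 4471, 4710, 1923 and 3934, and for members it changed the calls of Padi4 and Spint1 named above and no other call. Fitting only the arrays compared gave 88, 469, 0 and 30, with fewer residual degrees of freedom. Keeping every probe gave 417, 637, 157 and 588 over more probes tested. Array weights gave 1389 and 1726 in C57BL6 and 67 at 4 h in Balb/c. Median scaling gave 546 and 225 at 4 h in C57BL6 and in Balb/c. Leaving out 1 array gave 142 to 326 and 265 to 475 in C57BL6, and 90 to 276 and 446 to 609 in Balb/c. The planned normexp background gave 25, 160, 1 and 184.

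Differences between strains in the IL-4 change were called for 0 probes at both times. At 4 h, quantile normalization gave 2 and the deposited ratios 1. At 18 h, median scaling gave 3, quantile normalization 13, the slide block 2 and the deposited ratios 2. Leaving out 1 array gave 0 to 4 at either time. The member probes that did not overlap between strains numbered 15, as they did without any 1 array, but 7 with the planned normexp background and 3 where all 12 arrays had to be above background, which left out most members. The neighbour count kept its value of 1 with median scaling.

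The planned normexp background was distorted by up to 15 spots an array whose local background far exceeded their signal. On 6 arrays its fitted background mean was -957.8 to -401.4, against -12.65 to 0.15 on all arrays without those spots, a setting chosen after seeing the data. It turned the direction of 26 of the 68 IL-4 changes of member probes, 3 of them called. Plekhg1 in Balb/c at 18 h became -0.23 and its probe A_52_P285975 in C57BL6 at 18 h -2.37. Thumpd1 in Balb/c at 18 h became -0.31. The strain difference of the 18 h change became -0.79 for Thumpd1 and -1.86 for Plekhg1. Padi4 in Balb/c at 4 h, not called, became 0.56 at A_51_P255875 and 0.60 at A_52_P514061. Without those spots, Padi4 at A_51_P255875 was 0.032, and the 18 h change of Plekhg1 differed between strains by -0.81. That setting adds an offset, which compresses dim signals. It lost the calls of Plekhg1 in Balb/c at 4 h (0.67), of its probe A_52_P285975 in C57BL6 (0.38) and of Padi4 at A_52_P514061 in Balb/c (-0.27), and Thumpd1 in Balb/c at 18 h was called at 1.28. Of 521 alternative values of the 47 strain differences over 1 in size, 517 had the same sign. The 4 others were probes of Plekhg1, Abcb10, Sik1 and Padi4 at 4 h with the planned normexp background. Leaving out an array turned the direction of changes that were not called: Spint1 at A_51_P341108 at 4 h in C57BL6 ranged from -0.17, without replicate 2 of the 4 h group, to 2.22, and Padi4 at A_51_P255875 at 4 h in Balb/c 0.17 and 0.22 without replicate 1 of mock or of 4 h. Dim signals limit what can be said of Balb/c levels, since a probe near the background limit has only a bound.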
